A study of Mus musculus with 9 samples.

Results

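Markers of alternative activation in mouse macrophages and microglia, together with receptor chains for IL-4 and IL-10, were followed in BV2 cells as a set of 10 genes: *Il10*, *Il4ra*, *Il10ra*, *Mrc1*, *Clec10a*, *Msr1*, *Tgm2*, *Chil3*, *Retnla* and *Cd163*. They were taken by gene name, and each matched 1 of the 54532 genes in the expression table. Of these 10 genes, 7 had a mean of at least 0.2 FPKM (fragments scaled by gene length and by a divisor for each library) over the 9 libraries. These 7 entered the test, among 16123 genes in all. *Chil3*, *Retnla* and *Cd163* stayed under that level and are described by their reads. *Mrc1* passed it through the OGD + A-485 libraries alone.

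BV2 is an immortalised mouse microglial line, so every library came from 1 cell line and not from microglia of an animal. Control cells (3 libraries) were kept in complete medium with 10% serum. OGD cells (3 libraries) were kept in low-glucose medium with 4% serum at 4% oxygen, so that oxygen, glucose and serum all differed from the control. OGD + A-485 cells (3 libraries) received A-485 in addition, which blocks the acetyltransferase P300. The 24 h of OGD and 50 μM A-485 are given in the paper for assays that precede the transcriptome and are not repeated for it. A-485 in cells without OGD was not analysed here, so an effect of A-485 outside OGD could not be measured. The labels do not say whether the 3 libraries of a group came from separate cultures, and the p-values then measure only the spread between these libraries, which may be technical. In such bulk RNA, fewer cells expressing a gene and less RNA per cell cannot be told apart.

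IL-4 and IL-13 signal through the IL-4 receptor alpha chain and the transcription factor STAT6, and in mouse macrophages this programme switches on *Arg1*, *Mrc1*, *Retnla* and *Chil3*. IL-10 signals through a receptor of the chains IL-10RA and IL-10RB and through STAT3, and restrains the production of inflammatory cytokines. In microglia the same genes are commonly used as signs of an anti-inflammatory or repair state, against the pro-inflammatory state that hypoxia is studied for.

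The depth was similar in the 9 libraries, with 12593250 to 16091038 reads on genes, so that 1 read on a gene of 1 kb was worth 0.0618 to 0.0786 FPKM. Over the 9 libraries, all 10 listed microglia and macrophage markers had a mean above 1 FPKM. No listed marker of astrocytes, neurons, oligodendrocytes, fibroblasts, lymphocytes or mast cells and basophils reached that mean. The microglia marker *Aif1* passed it through OGD + A-485 (2.57 FPKM), with means of 0.613 in control and 0.889 under OGD. The oligodendrocyte marker *Mbp* had means of 1.04 in control, 1.10 under OGD and 0.737 under OGD + A-485. The 4 oligodendrocyte markers summed to at most 2.36 FPKM in any library, and those of each other cell type to at most 0.286. The summed level of the 10 microglia and macrophage markers was 570 to 590 FPKM in the control libraries, 677 to 709 under OGD and 1301 to 1337 under OGD + A-485. In OGD against control 4 of these 10 markers rose and none fell, and in OGD + A-485 against OGD 9 rose and none fell, all but *Ptprc*. Of all tested genes, 11.2% rose and 9.81% fell in the first of these comparisons, and 12.2% rose and 13.4% fell in the second. The part of this general rise in the results below was not tested.

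The promoters of *Mrc1*, *Retnla* and *Chil3* are shown first because these 3 genes are classical STAT6 markers, of which *Mrc1* appeared with A-485 while *Retnla* and *Chil3* were not detectable in any group. Each line gives the 250 bases upstream of the RefSeq transcription start on the gene's own strand (GRCm38.p6), which are chr2:14229164-14229413 (plus strand) for *Mrc1*, chr16:48842359-48842608 (plus strand) for *Retnla* and chr3:106167565-106167814 (minus strand) for *Chil3*. Capitals mark every match to 1 of 6 motifs searched on both strands.
Mrc1: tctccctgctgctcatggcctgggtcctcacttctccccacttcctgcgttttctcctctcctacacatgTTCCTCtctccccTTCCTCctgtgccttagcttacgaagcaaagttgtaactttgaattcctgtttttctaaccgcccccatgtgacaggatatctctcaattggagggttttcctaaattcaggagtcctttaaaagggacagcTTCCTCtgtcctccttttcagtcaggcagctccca
Retnla: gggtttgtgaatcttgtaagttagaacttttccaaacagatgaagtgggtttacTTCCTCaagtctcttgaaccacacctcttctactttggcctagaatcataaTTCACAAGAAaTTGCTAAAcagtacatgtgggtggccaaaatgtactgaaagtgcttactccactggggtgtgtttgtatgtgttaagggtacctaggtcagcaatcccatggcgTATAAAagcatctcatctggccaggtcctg
Chil3: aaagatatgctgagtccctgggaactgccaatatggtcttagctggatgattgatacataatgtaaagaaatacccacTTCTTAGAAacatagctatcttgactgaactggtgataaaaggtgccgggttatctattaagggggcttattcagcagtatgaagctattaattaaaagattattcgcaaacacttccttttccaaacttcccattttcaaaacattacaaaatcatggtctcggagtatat

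The motifs were the STAT6 letters (TTC and GAA with 4 bases between them), the STAT3 letters (TTC and GAA with 3 bases between them), the C/EBP letters TTGCNNAA, the PU.1 letters GAGGAA, the hypoxia response letters ACGTG and the TATA letters TATAAA. Of 32851 mouse promoter windows of the same length, 5.85% held the STAT6 letters, 7.02% the STAT3 letters, 9.56% the C/EBP letters, 23.3% the PU.1 letters, 16.6% the hypoxia letters and 12.4% the TATA letters. The *Mrc1* window held 3 matches to the PU.1 letters on the minus strand, with first bases at -180, -167 and -35 from the start, and none to the other motifs. At least 3 matches to the PU.1 letters occurred in 141 of the 32851 windows (0.429%). That number of matches was taken from the *Mrc1* window itself, and no such count was made for the other motifs, so the share is a description only. The *Retnla* window held the STAT6 letters at -145, the C/EBP letters at -134, the PU.1 letters at -196 and the TATA letters at -30, and no match overlapped another. The *Chil3* window held only the STAT3 letters, at -172. The *Il4ra* and *Cd163* windows held none of the 6 motifs. These matches describe letters in a window and are not evidence of binding. The *Il4ra* gene as annotated for the expression values begins at 125552120, inside its window (125552021 to 125552270). Part of that window is therefore not upstream of the annotated gene. The *Mrc1* and *Retnla* windows also reach past the annotated starts at 14229392 and 48842551. Promoter entries were found for 5 of the 10 genes, and *Il10*, *Il10ra*, *Clec10a*, *Msr1* and *Tgm2* had none.

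**Figure D1:**
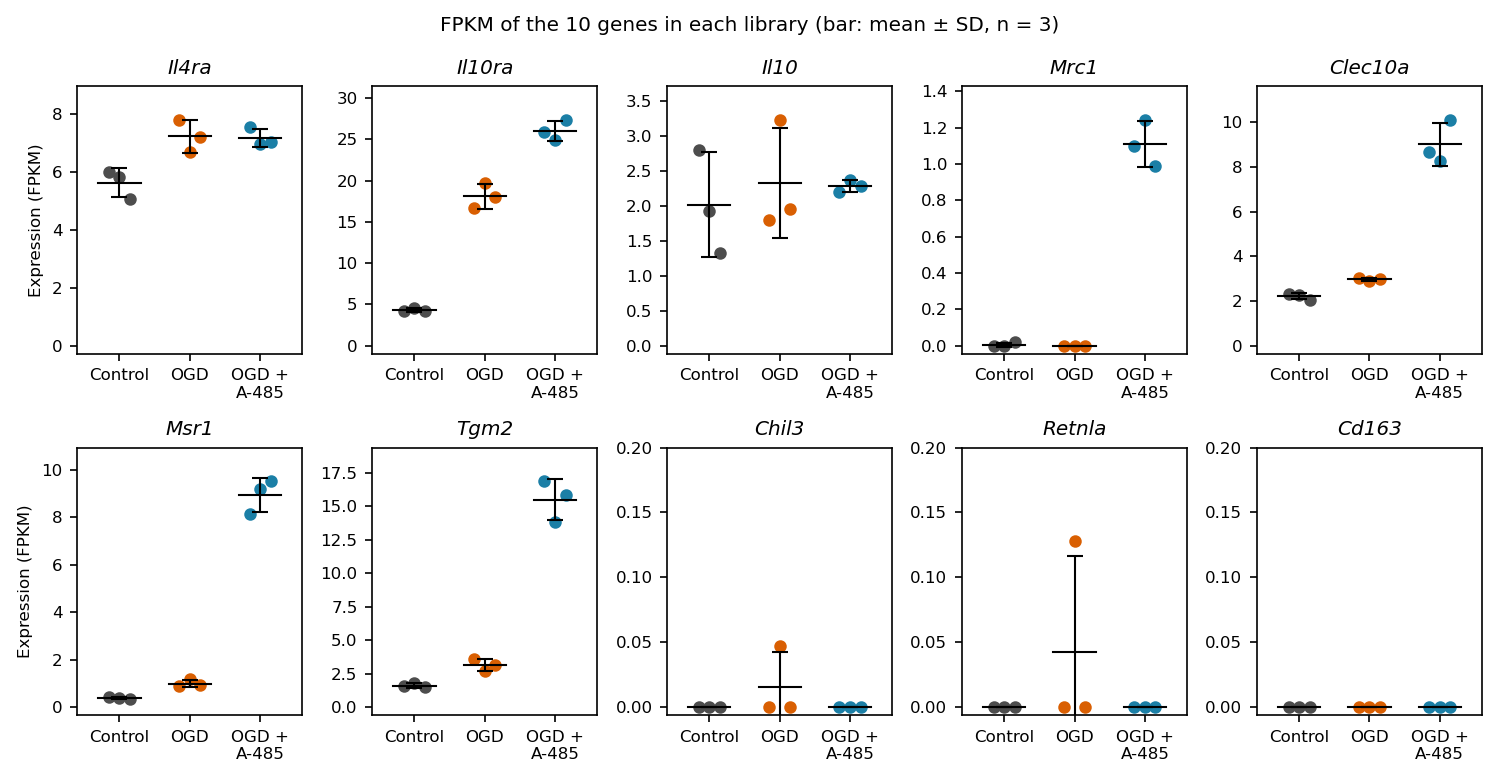
Expression in FPKM on linear axes (1 scale per gene) of the 10 genes in the 3 control, 3 OGD and 3 OGD + A-485 libraries, with a point per library and bars for mean ± SD. *Mrc1* lies at or near 0 outside OGD + A-485, *Il10ra* rises already in OGD, *Il10* overlaps in all groups, and *Chil3*, *Retnla* and *Cd163* hold at most 1 read in any library.

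OGD against control asks whether deprivation alone moves these genes. *Il10ra*, *Msr1* and *Tgm2* rose, and none of the 7 tested genes fell. Calls rested on limma with log2(FPKM + 0.1) and needed an unadjusted p under 0.01 together with a log2 fold change beyond 0.5 in size, and Benjamini-Hochberg adjusted p-values over all 16123 genes are given beside. The 3 called of 7 stand beside 21% of all tested genes called, 11.2% higher and 9.81% lower. Every OGD library lay above every control library for 5 of the 7 genes, and for 28% of all tested genes. The median log2 fold change was 0.41 over the 7 genes, 0.67 without *Mrc1* and 0.01 over all genes tested.

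OGD + A-485 against OGD asks whether the P300 inhibitor moves them under deprivation. *Mrc1*, *Msr1*, *Tgm2*, *Clec10a* and *Il10ra* rose and none fell, while 25.7% of all tested genes were called, 12.2% higher and 13.4% lower. For *Msr1*, *Tgm2*, *Clec10a* and *Il10ra* every OGD + A-485 library lay above every OGD library, as it did for 28.5% of all tested genes. *Mrc1* is left out of this count because it entered the test through its OGD + A-485 libraries. The median log2 fold change was 1.57 over the 7 genes and 0.01 over all genes tested. Without *Mrc1*, which had entered the test through its OGD + A-485 libraries, 4 of 6 genes were called, with a median of 1.04. In OGD + A-485 against control the same 5 genes were higher, beside 33.7% of all tested genes called, 17% higher and 16.6% lower, with a median of 2.56 against 0.02 (4 of 6 and 2.27 without *Mrc1*). With *Mrc1* left aside, the groups of that comparison did not overlap for *Il10ra*, *Tgm2*, *Clec10a*, *Msr1* and *Il4ra*. The same held for 31.8% of all tested genes, with the higher values under OGD + A-485. The 3 comparisons share their groups, so they are not independent of each other.

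*Il10*, the anti-inflammatory cytokine itself (chromosome 1, 131019845 to 131024974, plus strand), was expressed at a low level in every group. It was measured at 2.80, 1.93 and 1.32 FPKM in the control libraries, 1.80, 3.22 and 1.95 under OGD and 2.19, 2.37 and 2.28 under OGD + A-485. The libraries of all 3 groups overlapped, and the control and OGD libraries were the more scattered. The log2 fold change was 0.21 in OGD against control (95% confidence interval -0.42 to 0.84, limma adjusted p = 0.579) and 0.02 in OGD + A-485 against OGD (-0.61 to 0.65, adjusted p = 0.968). With 28 to 55 reads per library and this scatter, changes of the sizes inside these intervals were not excluded.

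*Il10ra*, the ligand-binding chain of the IL-10 receptor (chromosome 9, 45253837 to 45269149, minus strand), had the largest rise of the 7 genes in OGD. It was measured at 4.26, 4.59 and 4.15 FPKM in the control libraries, 16.7, 19.7 and 18.0 under OGD and 25.8, 24.9 and 27.4 under OGD + A-485. The groups did not overlap in any comparison, and the step from control to OGD was the larger one. The mean was 4.18 times the control in OGD (log2 fold change 2.04 ± 0.07 SE, n = 3 per group, limma adjusted p = 3.02e-07). It was 1.44 times the OGD level in OGD + A-485 (log2 fold change 0.52 ± 0.07, adjusted p = 0.000271), just past the size threshold of 0.5. That second call was lost without OGD replicate 1 (0.46), without OGD + A-485 replicate 3 (0.48) and under 3 other scalings. The pseudogene *Gm20612* on the opposite strand lies within *Il10ra* and held 8, 19 and 23 reads in the 3 groups, far below the 199 to 1380 reads per library of *Il10ra*.

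*Il10rb*, which encodes the signalling partner chain of that receptor, rose with A-485 and was not called in OGD. It was at 6.22 ± 0.608 FPKM (SD, n = 3) in control, between 5.59 and 6.27 in the OGD libraries, and 16.1 ± 0.641 under OGD + A-485. The control and OGD libraries overlapped and the OGD + A-485 libraries lay above both (log2 fold change 1.41 against OGD, limma adjusted p = 1.47e-06). Whether the response of *Il10rb* differed from that of *Il10ra* was not tested.

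*Il4ra*, the chain shared by the IL-4 and IL-13 receptors (chromosome 7, 125552120 to 125579474, plus strand), changed little. It was measured at 6.01, 5.81 and 5.08 FPKM in the control libraries, 7.80, 6.68 and 7.21 under OGD and 7.55, 6.96 and 7.04 under OGD + A-485. All deprived libraries lay above all control libraries, and the OGD and OGD + A-485 libraries overlapped. The log2 fold change of 0.36 in OGD against control (95% confidence interval 0.17 to 0.54, limma adjusted p = 0.0069) stayed under the size threshold. Against OGD it was -0.01 in OGD + A-485 (-0.19 to 0.18, adjusted p = 0.951). The antisense gene *Gm44876* within *Il4ra* held 2 reads in OGD and 0 in the other groups.

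*Mrc1*, the mannose receptor CD206 that takes up glycoproteins (chromosome 2, 14229392 to 14332057, plus strand), was close to a switch. It was listed at 0, 0 and 0.0194 FPKM in the control libraries (0, 0 and 2 reads), at 0 in all 3 OGD libraries, and at 1.10, 1.24 and 0.991 in OGD + A-485 (102, 125 and 91 reads). Every OGD + A-485 library lay above every other library. Against a floor of 3 reads per OGD library (0.0355 FPKM), the OGD + A-485 level was at least 31.2-fold higher. Against the 2 control reads the ratio was 155, with an exact 95% counting interval of 42.7 to 1288 that covers counting error only. The limma log2 fold change against OGD was 3.59 and depended on the pseudocount. It is a description only, since *Mrc1* entered the fit through the group in which it was high. At 0 in OGD and 2 reads in control, no fall of *Mrc1* by OGD could have been seen. The microRNA gene *Mir511* within *Mrc1* was listed at 0 in every library.

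*Msr1*, the class A scavenger receptor that binds modified lipoproteins and bacterial surface molecules (chromosome 8, 39581685 to 39642673, minus strand), rose in both steps. It was measured at 0.413, 0.387 and 0.331 FPKM in the control libraries, 0.879, 1.17 and 0.930 under OGD and 8.12, 9.18 and 9.51 under OGD + A-485. No libraries overlapped between groups. The mean was 2.64 times the control in OGD (log2 fold change 1.19 ± 0.14, limma adjusted p = 0.000145). In OGD + A-485 it was 8.99 times OGD (log2 fold change 3.05 ± 0.14, adjusted p = 5.03e-07).

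*Clec10a*, the galactose-type lectin MGL1 (chromosome 11, 70156197 to 70170834, plus strand), was measured at 2.30, 2.28 and 2.07 FPKM in the control libraries, 3.01, 2.89 and 2.99 under OGD and 8.66, 8.25 and 10.1 under OGD + A-485. The groups did not overlap, but the step in OGD was small (log2 fold change 0.41, 95% confidence interval 0.21 to 0.60, limma adjusted p = 0.00475) and stayed under the size threshold. In OGD + A-485 the mean was 3.04 times OGD (log2 fold change 1.57 ± 0.09, adjusted p = 1.45e-06).

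*Mgl2*, the neighbouring and closely related lectin, was at 0.332 ± 0.169 FPKM (SD, n = 3) in control, 0.371 ± 0.0700 under OGD and 5.69 ± 0.368 with A-485 (log2 fold change 3.63 against OGD, limma adjusted p = 1.46e-05). The longest transcripts of *Clec10a* and *Mgl2* shared 93.9% of 759 aligned bases, and 8.63% of the 50-base words of *Clec10a* occurred in *Mgl2*. How reads that match both were counted is not given in the sources used here, so the split between the pair is uncertain.

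*Tgm2*, transglutaminase 2, which cross-links proteins and is induced by IL-4 in macrophages (chromosome 2, 158116402 to 158146436, minus strand), also rose in both steps. It was measured at 1.58, 1.80 and 1.47 FPKM in the control libraries, 3.60, 2.73 and 3.18 under OGD and 16.9, 13.8 and 15.8 under OGD + A-485. No libraries overlapped between groups. The mean was 1.96 times the control in OGD (log2 fold change 0.93 ± 0.12, limma adjusted p = 0.000273) and 4.89 times OGD in OGD + A-485 (2.26 ± 0.12, adjusted p = 1.18e-06). *Rprd1b* overlaps *Tgm2* on the opposite strand and was at 12.2, 8.89 and 9.11 FPKM in the 3 groups. Since no source states that strand was used in counting, reads of the overlap cannot be assigned to either gene. *Tgm1*, the related transglutaminase of the epidermis, moved from 5.06 ± 0.481 to 16.2 ± 0.331 and 3.19 ± 0.583 FPKM, higher in OGD and lower in OGD + A-485.

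*Chil3* (Ym1, a chitinase-like lectin; chromosome 3, 106147554 to 106167564, minus strand) and *Retnla* (the secreted factor FIZZ1; chromosome 16, 48842551 to 48844461, plus strand) had 1 read each in all 9 libraries together, both in OGD replicate 2. *Cd163*, the receptor for haemoglobin-haptoglobin complexes (chromosome 6, 124304656 to 124330527, plus strand), had 0 reads. A floor of 3 reads per library allowed at most 0.114 to 0.144 FPKM for *Chil3*, 0.309 to 0.393 for *Retnla* and 0.0339 to 0.0432 for *Cd163*. These 3 genes were therefore not detectable at this depth in any group. *Chil4*, whose transcript is 94.3% identical to that of *Chil3*, also had 0 reads, so no *Chil3* reads were counted there. Of the 50-base words of *Chil3*, 17.9% occurred in *Chil4*. Reads that match both may not have been counted for either, since their handling is not given in the sources used here.

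The order of the genes changed with the groups. By mean FPKM the order in control was *Il4ra* (5.64), *Il10ra* (4.33), *Clec10a* (2.21), *Il10* (2.02), *Tgm2* (1.62) and *Msr1* (0.377), and the libraries of *Clec10a* and *Il10* and of *Il10* and *Tgm2* overlapped. In OGD *Il10ra* (18.1) led *Il4ra* (7.23), and *Tgm2* (3.17), *Clec10a* (2.96) and *Il10* (2.33) overlapped. In OGD + A-485 *Il10ra* (26.0) was followed by *Tgm2* (15.5), then by *Clec10a* and *Msr1* (8.94), whose libraries overlapped, by *Il4ra* (7.18), *Il10* (2.28) and *Mrc1* (1.11).

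**Figure D2:**
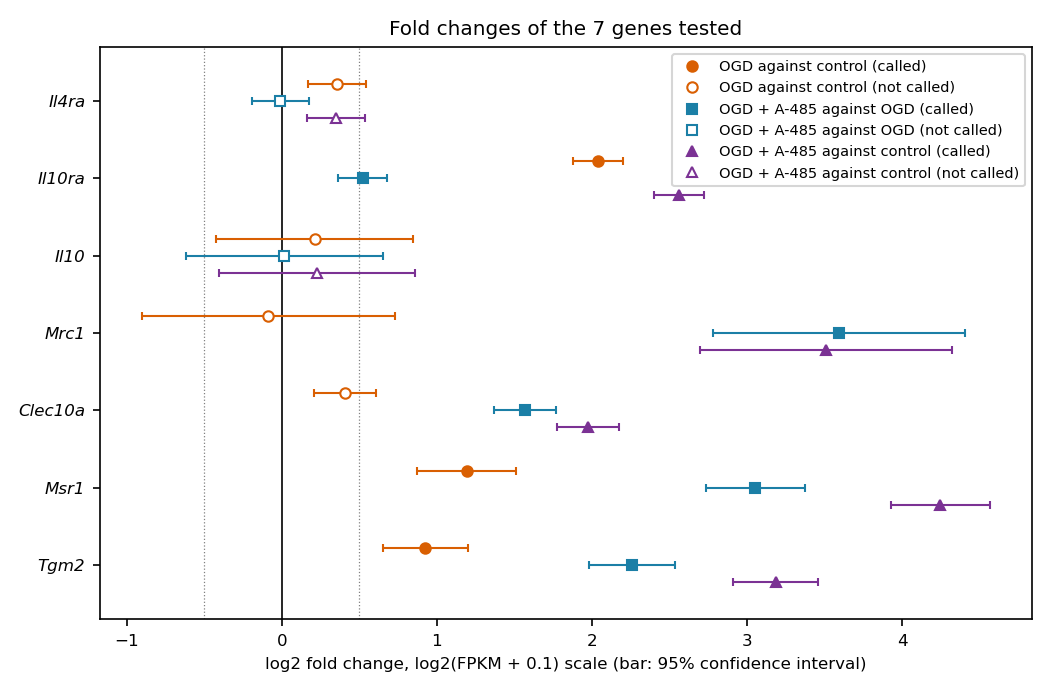
Fold change on the log2(FPKM + 0.1) scale (x axis) of the 7 tested genes (y axis) in the 3 comparisons, with bars for the 95% confidence interval, filled symbols for called genes and dotted lines at the size threshold of 0.5 in either direction. *Msr1* and *Tgm2* lie above 2 for OGD + A-485 against OGD, as does *Mrc1*, which passed the filter through the OGD + A-485 libraries alone. *Il10ra* lies above 2 for OGD against control, and *Il4ra* and *Il10* are not called in any comparison.

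Of 17 listed genes of IL-4 and IL-13 signalling 14 were tested, and 4 rose and none fell in OGD, beside 11.2% and 9.81% of all tested genes. In OGD + A-485 against OGD 2 rose and 3 fell, near the 12.2% and 13.4% of all tested genes, and 1 rose and 2 fell without OGD replicate 1, without OGD replicate 2, with a pseudocount of 1 and with quantile normalization. The median log2 fold change was 0.25 and -0.04, beside 0.01 over all genes in both comparisons. *Il4*, the cytokine, was at 3.34 ± 0.278 FPKM (SD, n = 3) in control, 3.66 ± 0.718 under OGD and 2.45 ± 0.421 with A-485, a log2 fold change of -0.56 against OGD (limma adjusted p = 0.0219). That call sat at the p threshold and was lost in 6 of 12 other settings and on leaving out 7 of the 9 single libraries (-0.71 to -0.42), so *Il4* was not clearly lower. *Il13* was not tested and had at most 2 reads in any control or OGD library and 4 to 8 in OGD + A-485.

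Among the receptor chains, *Il13ra1* rose in OGD from 23.4 ± 0.990 to 39.8 ± 2.68 FPKM and was at 37.0 ± 2.45 in OGD + A-485. *Il2rg*, the common gamma chain, was at 21.8 to 22.3 FPKM in control and at means of 23.7 and 21.5 in the other groups and was not called. Of the kinases, *Tyk2* rose in OGD (log2 fold change 0.69, limma adjusted p = 0.000144). *Jak3*, which pairs with the common gamma chain, rose in OGD by 0.55 and fell in OGD + A-485 against OGD (-0.81, adjusted p = 0.000153), and *Insl3* overlaps it on the same strand. The call in OGD was lost without OGD replicate 3 (0.49) and with scaling to library totals (0.50).

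Downstream, *Stat6* was at 27.4, 32.6 and 46.3 FPKM in the 3 groups and was called in OGD + A-485 against OGD with a log2 fold change of 0.50, at the size threshold. The call was lost in 4 of 12 other settings and without OGD replicate 1, OGD replicate 2 or OGD + A-485 replicate 1 (0.48 to 0.54 over the left-out libraries). *Irs2*, an adaptor of the IL-4 receptor and the insulin receptor, went from 2.09 ± 0.0283 FPKM in OGD to 6.01 ± 0.784 in OGD + A-485. *Cish*, a feedback inhibitor induced by STAT5, went the opposite way, with 1.96 ± 0.126 FPKM in the control libraries, 5.82 ± 0.617 under OGD and 1.21 ± 0.0505 under OGD + A-485. *Socs1*, another feedback inhibitor, was at 0.746, 0.498 and 0.410 FPKM and was not called.

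In the IL-10 list all 14 genes were tested, and 5 rose and 1 fell in OGD, while 3 rose and 2 fell in OGD + A-485 against OGD, with medians of 0.33 and 0.10. Beside these stand 11.2% and 9.81% of all tested genes in OGD and 12.2% and 13.4% with A-485, and the second count was 1 and 2 with the median of neighbouring genes removed. *Il10ra* and *Il4ra* are themselves members of that list. *Stat3* was at 14.1, 14.8 and 17.0 FPKM and was not called, and *Socs3*, the inhibitor that STAT3 induces, rose in OGD + A-485 against OGD (19.0 ± 1.52 to 28.5 ± 1.17 FPKM), a call lost with the median of neighbouring genes removed (0.41). Some genes that IL-10 is known to induce fell. *Nfil3* first rose in OGD (log2 fold change 0.61, limma adjusted p = 2.91e-05) and fell by 1.10 on the log2 scale in OGD + A-485 against OGD (adjusted p = 7.41e-07). *Sbno2* fell by 0.66 with A-485 (adjusted p = 5.5e-05), and *Bcl3* fell by 0.94 in OGD (adjusted p = 2.4e-05). *Etv3* (log2 fold change 0.99) and *Ddit4* (1.45), which is also induced by hypoxia, rose in OGD.

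**Figure D3:**
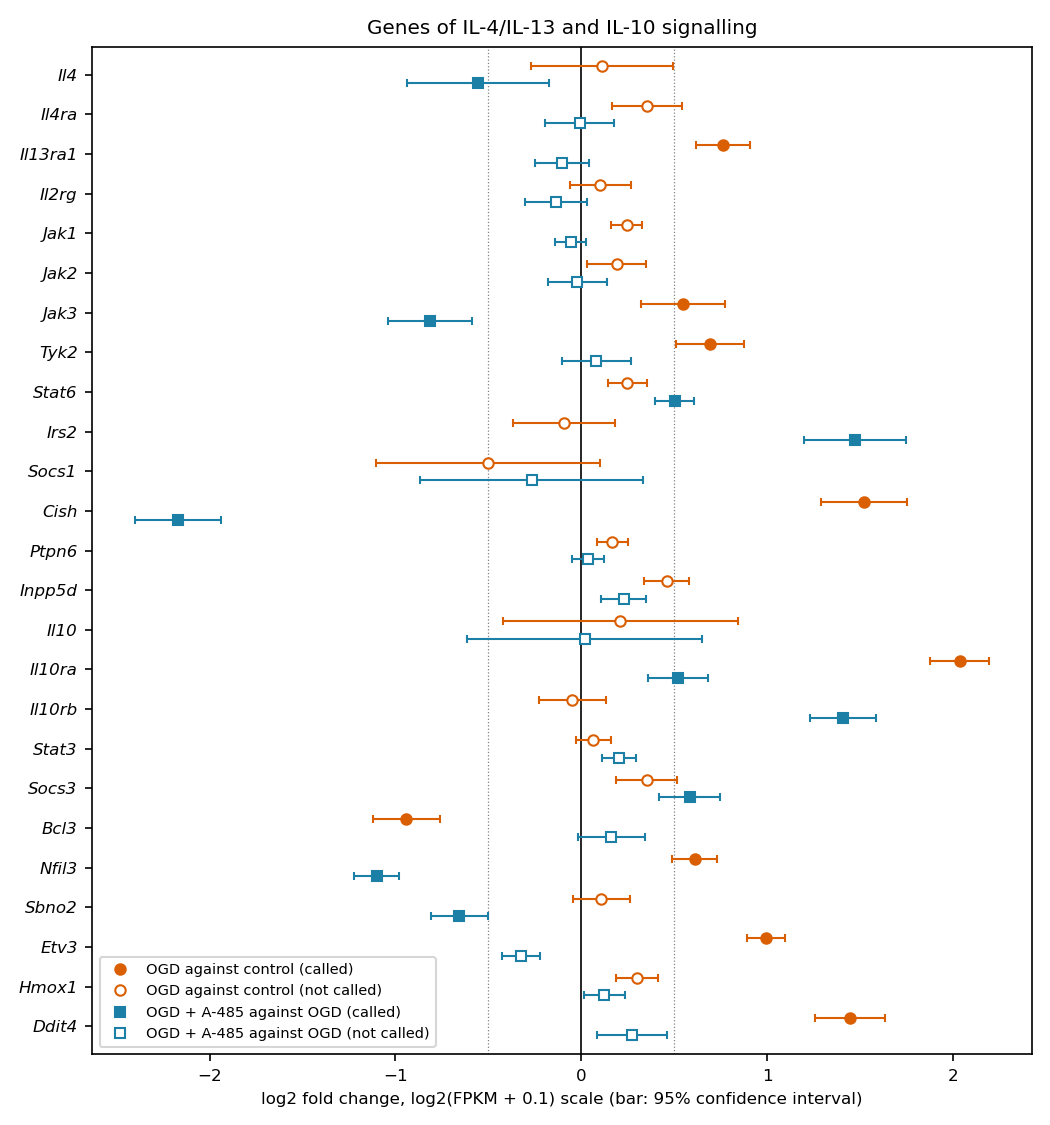
Fold change on the log2(FPKM + 0.1) scale (x axis) of the tested genes of IL-4/IL-13 and IL-10 signalling (y axis) in OGD against control (circles) and OGD + A-485 against OGD (squares), with bars for the 95% confidence interval, filled symbols for called genes and dotted lines at 0.5 in either direction. *Il10ra* has the largest rise in OGD, and *Cish* the largest change in OGD + A-485, where it is lower by 2.17.

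Of 31 other genes tied to alternative activation 18 were tested, and 7 rose and 2 fell in OGD, while 8 rose and 3 fell in OGD + A-485 against OGD, with medians of 0.43 and 0.42. The shares of all tested genes were 11.2% and 9.81% in OGD and 12.2% and 13.4% with A-485. *Alox15* reached the filter through the OGD + A-485 libraries alone. Without it 7 rose and 3 fell of 17 in OGD + A-485 against OGD, with a median of 0.395. With a minimum mean of 1 FPKM that count was 5 higher and 1 lower of 12. *Arg1*, an arginase used as a marker of the state in mouse, was at 0.672, 0.409 and 0.305 FPKM in the control libraries. It was at 9.80, 11.4 and 9.19 under OGD and 103, 105 and 118 under OGD + A-485. The groups did not overlap, and both steps were called (log2 fold changes 4.23 and 3.41, limma adjusted p = 1.46e-06 and 2.22e-06).

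*Igf1*, a growth factor of repair-state microglia, followed with 1.48 ± 0.0701, 2.30 ± 0.199 and 18.1 ± 0.674 FPKM. Its call in OGD (log2 fold change 0.60) was lost with a pseudocount of 1 and with quantile normalization. *Il1rn*, the IL-1 receptor antagonist, rose in OGD and fell in OGD + A-485, with 33.9 ± 1.20, 59.8 ± 0.366 and 26.6 ± 1.78 FPKM. *Ppargc1b*, a mitochondrial coactivator downstream of STAT6, fell in OGD (log2 fold change -0.76, limma adjusted p = 0.000197).

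The scavenger receptors and macrophage C-type lectins, the group to which *Mrc1*, *Clec10a*, *Msr1* and *Cd163* belong, held no gene called lower with A-485. Of 24 listed genes 19 were tested, and 5 rose and 1 fell in OGD, while 14 rose and none fell in OGD + A-485 against OGD. Beside these stand 11.2% and 9.81% of all tested genes in OGD and 12.2% and 13.4% with A-485. *Mrc1*, *Marco* and *Clec4a2* reached the filter through the OGD + A-485 libraries alone, and without them 11 of 16 rose, with a median of 1.53. The medians over the 19 were 0.23 and 1.60, beside 0.01 over all genes in both comparisons. *Marco*, a class A scavenger receptor like *Msr1*, was at 0.117, 0.146 and 0.0962 FPKM in the control libraries, 0.0816, 0.120 and 0 under OGD and 16.3, 14.7 and 16.9 under OGD + A-485. Its 448 to 468 reads per OGD + A-485 library stood against at most 4 in any other library, and no p is given because *Marco* reached the filter through these libraries alone.

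*Cd36* (2.91 ± 0.472 to 11.5 ± 1.25 FPKM) and *Clec4n*, which encodes dectin-2 (0.617 ± 0.114 to 3.87 ± 0.395), rose in OGD + A-485 against OGD. *Clec12a* rose in both steps, from 0.0509 ± 0.0263 to 0.492 ± 0.0924 and 5.05 ± 0.289 FPKM, as did *Colec12*, from 33.9 ± 1.36 to 61.0 ± 2.06 and 144 ± 4.23. *Scarb2*, a lysosomal membrane protein, was the 1 gene of the list that fell in OGD (8.74 ± 0.160 to 5.53 ± 0.165 FPKM) and rose with A-485 (15.8 ± 1.56). *Stab1* rose in OGD (4.54 ± 0.242 to 10.6 ± 0.581 FPKM), and *Nt5dc2*, which overlaps it on the opposite strand, was at 111, 122 and 50.4 FPKM in the 3 groups.

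**Figure D4:**
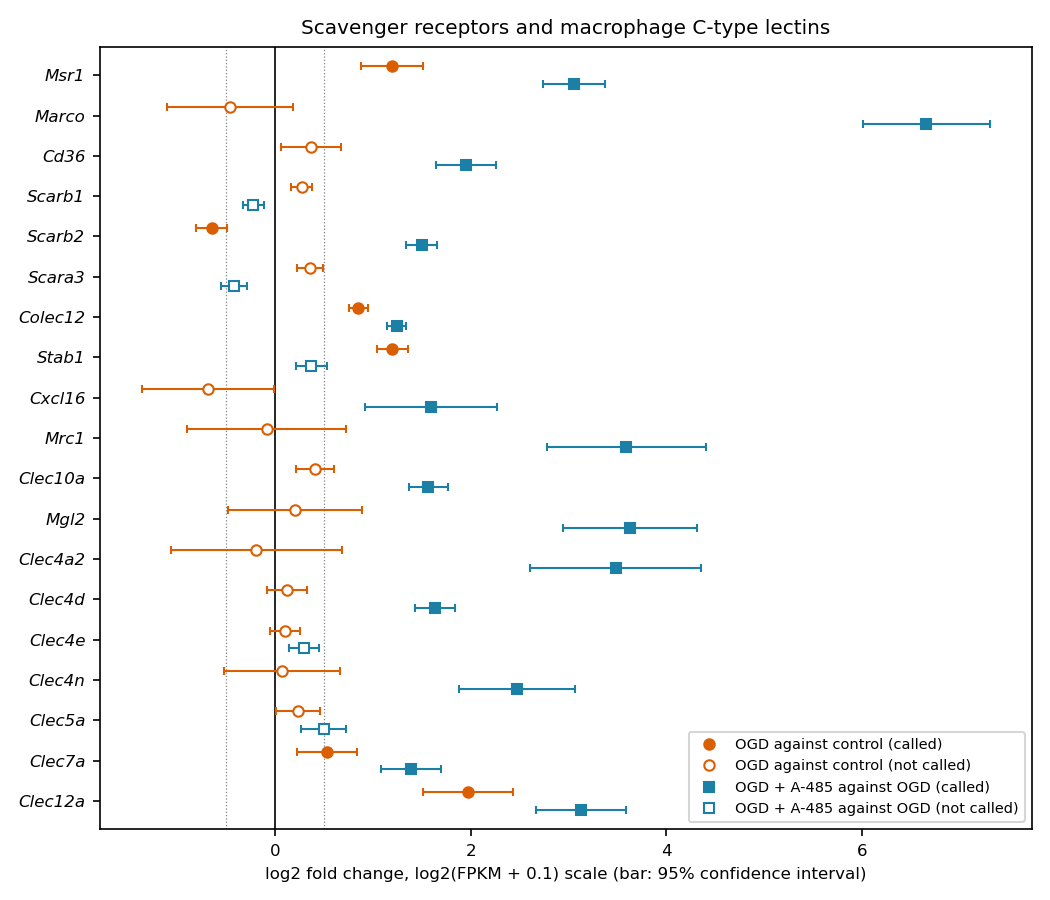
Fold change on the log2(FPKM + 0.1) scale (x axis) of the 19 tested scavenger receptors and macrophage C-type lectins (y axis) in OGD against control (circles) and OGD + A-485 against OGD (squares), with bars for the 95% confidence interval, filled symbols for called genes and dotted lines at 0.5 in either direction. In OGD + A-485 against OGD 14 genes are called higher and none lower, beside 12.2% and 13.4% of all tested genes. *Marco*, the farthest to the right at 6.66, *Mrc1* and *Clec4a2* passed the filter through the OGD + A-485 libraries alone. Without these genes 11 of 16 are called higher.

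The genes whose patterns were most like those of single members were found by the root mean square difference of centred log2(FPKM + 0.1) values over the 9 libraries, among 10293 named genes whose mean reached 1 FPKM. *Tnfaip3*, an inhibitor of NF-κB signalling, was nearest to *Il10ra* (difference 0.0959) with 2.50, 10.1 and 14.8 FPKM in the 3 groups, ahead of *Gsn* and *Tnfsf13b*. *Ctsk*, a lysosomal protease, was nearest to *Msr1* (0.166) with 24.6, 49.0 and 482 FPKM, ahead of *Evl* and *Gipr*. *Tmem176b* was nearest to *Clec10a* (0.0821), ahead of *Psap* and *Plin2*, and *Tifab* to *Tgm2* (0.136), ahead of *Siglec1* and *Rpl22l1*. *Wdr45* was nearest to *Il4ra* (0.0396), ahead of *Washc3* and *Slc25a20*. For *Il10* the nearest gene, *Rwdd2a*, was no closer than 0.215, and *Rpl21-ps8* and *Tdrd7* followed.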

How the data were processed

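RNA-seq of 9 BV2 libraries (3 groups of 3, grouped by their titles and treatment labels) was analysed. The authors removed low-quality reads, counted reads per gene with featureCounts and deposited FPKM computed from these counts and gene lengths. The aligner and the strand setting are not given in the sources used here, and the submitters' processing notes name GRCm38 (mm10). Gene coordinates are those of the table. Reads were recovered as FPKM times gene length times a library divisor, and 100% of the values came out whole (tolerance 0.01), and 12593250 to 16091038 reads per library set the precision. Each divisor was proportional to a size factor and not to the library's read total. The size factor is the median over genes of a library's reads relative to the mean of all libraries. Median fold changes near 0 over all genes follow from such scaling. Floors of 3 reads and intervals cover counting error only.

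For the 16123 genes whose mean reached 0.2 FPKM, limma 3.58.1 (R 4.3.3) was fitted to log2(FPKM + 0.1) of all 9 libraries, with group means and a trended prior variance, and the fit was tested on simulated data. Calls needed p under 0.01 and a log2 fold change beyond 0.5 in size, the thresholds of the study. Standard errors are those of the limma fit. The genes followed, the lists and the motifs were chosen with earlier results of these data known. Named besides the 10 genes are, per list, up to 4 called genes of at least 1 FPKM (mean) with the largest fold changes, the pathway cytokines, receptors and regulators, *Arg1*, and the 3 genes nearest in pattern to each of the 6 members with a mean of at least 1 FPKM. *Mgl2*, *Tgm1* and *Chil4* are also paralogs of members. Of 17 listed paralogs 15 were in the table and 2 were tested, of which 1 rose in OGD, and 1 rose and 1 fell in OGD + A-485 against OGD. Of all tested genes, 11.2% rose and 9.81% fell in OGD, and 12.2% rose and 13.4% fell in OGD + A-485 against OGD. Promoters came from RefSeq (GRCm38.p6). Python 3.11.15, pandas 2.3.3, scipy 1.17.1 and Biopython 1.88 were used.

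The alternatives tried were other pseudocounts (1 and 0.01), other filters (a mean of 1 FPKM, or none), other scalings (quantiles, library totals, the median of 50 neighbouring genes removed), other fits (limma-voom with the recovered reads, only the compared groups, replicate numbers as blocks, an untrended prior variance), an adjusted p under 0.05, and leaving out single libraries.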

Additional observations from a re-analysis of the deposited data

How the results depend on the processing

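Of the 7 genes, 3 were called in OGD against control under each alternative and without any single library. In OGD + A-485, 4 or 5 were called, both against OGD and against control. *Mrc1*, which entered the test through the OGD + A-485 libraries, is among these wherever it was tested. Without *Mrc1*, the main fit called 4 of 6 genes in both of these comparisons. Of all tested genes, the main fit called 21%, 25.7% and 33.7% in the 3 comparisons. *Il10ra* in OGD + A-485 against OGD, close to the size threshold, lost its call with quantile normalization (0.45), scaling to library totals (0.46) and removal of the neighbouring genes' median (0.49), and ranged from 0.46 to 0.58 when libraries were left out. Changes near 0 turned sign. *Il10* in OGD + A-485 against OGD was -0.045 with scaling to library totals, -0.084 with the neighbours' median removed and -0.14 to 0.27 with libraries left out. With libraries left out, *Il10* was -0.046 to 0.47 in OGD against control and -0.028 to 0.49 in OGD + A-485 against control. *Il4ra* in OGD + A-485 against OGD was 0.024 with quantile normalization and -0.063 to 0.048 with libraries left out. The fold change of *Mrc1* against OGD was 1.08 with a pseudocount of 1, 6.80 with 0.01 and 7.56 in limma-voom, and the gene was not tested with a minimum mean of 1 FPKM. With the floor of 3 reads set over the 3 OGD libraries together, *Mrc1* was at least 94.2-fold higher. *Msr1* in OGD against control was 0.53 with a pseudocount of 1. Equal replicate numbers did not pair the libraries (correlations of their deviations -0.125 to 0.0725, and -0.0861 to 0.132 for unequal numbers). With the replicate block 3, 5 and 5 of the 7 genes were called. *Mrc1*, which entered through the OGD + A-485 libraries, is among the 5 in both comparisons of OGD + A-485.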
